A study of Mus musculus with 16 samples.

Results

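Collagen genes were followed in mouse hearts 5 days after doxorubicin with or without nicotinamide mononucleotide (NMN). They were chosen by name, as every gene whose symbol reads Col, a type number, the letter a and a chain number. The rule matched 44 of the 30884 genes measured: 11 fibrillar collagens, 6 basement membrane (type IV) collagens and 27 others. Of these, 33 had enough counts to be tested and 11 did not.

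Messenger RNA was sequenced from hearts of wild type C57BL/6 male mice aged 8 weeks, with 4 libraries in each of 4 groups. The doxorubicin NMN group received NMN at 500 mg/kg and, 30 min later, a single dose of doxorubicin at 15 mg/kg, both into the peritoneum. The doxorubicin vehicle group received saline in place of NMN, the sham NMN group saline in place of doxorubicin, and the sham vehicle group saline both times. Doxorubicin is an anthracycline chemotherapy drug that can injure heart muscle, and NMN is a precursor of the coenzyme NAD. Nothing in the labels beyond a number tells replicates apart, and the p-values reflect only how far these libraries vary.

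A collagen molecule is a rope of wound chains, each chain the product of its own gene. Fibrillar collagens (types I, II, III, V, XI, XXIV and XXVII) include those of the banded fibres that carry tension between heart muscle cells, and fibroblasts are known as their main source in the heart. Type IV collagens form the sheet under the endothelium and around each muscle cell, and the remaining types coat fibrils, form beaded filaments or span membranes. Chains are hydroxylated and folded with dedicated chaperones, trimmed outside the cell by proteinases, crosslinked by lysyl oxidases and broken down by collagenases.

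The promoter sequences below are shown for collagen genes that were lower in doxorubicin vehicle hearts: Col3a1, with the largest fold of the fibrillar genes, Col5a1 as its fibril partner, Col8a1 as a network collagen, and the interval that Col4a4 and Col4a3 share as a promoter. They are from RefSeq on GRCm38.p6, end at the base before the annotated start of the gene, and are written 5′ to 3′ on the gene's strand. Capitals mark matches on either strand to TATAAA or to GGGCGG, and CCAAT was searched too with no match in them. No searched motif overlaps another in these windows, apart from neighbouring copies of GGGCGG that sit close together in Col8a1.
Col3a1, chr1:45311288-45311537, plus strand: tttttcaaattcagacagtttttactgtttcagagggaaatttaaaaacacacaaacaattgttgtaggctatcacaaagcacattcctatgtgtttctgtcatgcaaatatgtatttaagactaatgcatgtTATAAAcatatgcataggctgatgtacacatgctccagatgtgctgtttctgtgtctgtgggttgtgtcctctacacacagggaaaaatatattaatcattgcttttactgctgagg
Col5a1, chr2:27886175-27886424, plus strand: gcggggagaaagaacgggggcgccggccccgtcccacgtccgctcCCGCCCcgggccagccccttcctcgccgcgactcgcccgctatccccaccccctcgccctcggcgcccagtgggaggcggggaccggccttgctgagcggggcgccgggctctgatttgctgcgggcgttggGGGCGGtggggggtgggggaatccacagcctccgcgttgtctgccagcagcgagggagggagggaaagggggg
Col8a1, chr16:57754738-57754987, minus strand: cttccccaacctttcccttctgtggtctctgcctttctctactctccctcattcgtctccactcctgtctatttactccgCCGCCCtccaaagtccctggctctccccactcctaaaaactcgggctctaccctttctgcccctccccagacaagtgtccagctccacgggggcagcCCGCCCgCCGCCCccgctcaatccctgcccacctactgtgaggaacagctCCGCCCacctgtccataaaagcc
Col4a4-Col4a3 interval, chr1:82586850-82586920, plus strand: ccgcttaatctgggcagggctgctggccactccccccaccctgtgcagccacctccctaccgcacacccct

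These windows differ in composition. The Col3a1 window has a GC content of 35.2% and holds 1 TATAAA, starting 117 bases before the gene, a motif found in 12.4% of the 32851 RefSeq mouse windows of the same 250 bases. The Col5a1 window has a GC content of 76.4% and holds GGGCGG or its reverse complement 2 times, and the Col8a1 window holds it 4 times. GGGCGG was present in 32.7% and CCAAT in 33.8% of all windows. The 71 bases between Col4a4 and Col4a3 hold none of the 3 motifs. A match is a description of letters and not a binding site. RefSeq windows were at hand for 35 of the 44 genes.

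Totals ran from 13.9 to 16.4 M counts per library, and 3 counts, taken as the floor of detection, stood for 0.183 to 0.215 CPM, a bound for counting error only. Heart muscle markers (Myh6, Tnnt2, Ttn and 5 more) were present in every library, with summed levels of 36400 to 59800 CPM in doxorubicin NMN, 19400 to 24400 CPM in doxorubicin vehicle, 59200 to 64000 CPM in sham NMN and 58900 to 65400 CPM in sham vehicle. A split that the labels do not name crossed the groups. In 6 libraries, replicate 4 of doxorubicin NMN, 3 and 4 of doxorubicin vehicle, 4 of sham NMN, and 3 and 4 of sham vehicle, the genes Scand1, Cox11 and Mrps34 read low, with a mean log2 CPM of -1.40 to 0.20 against 2.40 to 3.37 in the other 10. Below, these 6 form the second part of the split and the remaining 10 its first. The second part holds 2 libraries of each vehicle group and 1 of each NMN group, so calls within it rest on few libraries. The split was drawn from values of these same libraries and its origin was not tested. Many collagen genes differed along it, so for many of the named genes folds within each part are given beside the pooled ones.

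Doxorubicin vehicle hearts held less collagen mRNA than sham vehicle hearts for most tested collagen genes. Of the 33, 20 were lower, 1 was higher and 12 were not called at an adjusted p under 0.05 (edgeR quasi-likelihood test, Benjamini-Hochberg over 14716 genes). Over all genes tested 48.7% were called, with 23.9% lower and 24.8% higher. The median log2 fold was -1.34 over the collagens and 0.01 over all genes. For 19 collagens every doxorubicin vehicle library lay below every sham vehicle library, which was so for 17.3% of all genes. By class, 7 of 8 fibrillar, 2 of 6 type IV and 11 of 19 other collagens were lower, while Col13a1, a transmembrane collagen, was higher. Fitted on the first part alone, 15 of the 33 were lower and 1 higher, where 13.9% of all genes were lower and 13.6% higher. On the second part alone 24 were lower and 1 higher, where 30.1% of all genes were lower and 30.6% higher. In bulk RNA, fewer cells of a type and less RNA per cell cannot be told apart.

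With NMN before doxorubicin, 14 of the 33 tested collagens were higher and 2 were lower than in doxorubicin vehicle hearts, and 17 were not called. Over all genes 36.3% were called in this comparison, 17.5% higher and 18.8% lower. The median log2 fold was 0.85 over the collagens and 0.00 over all genes. The higher ones were 4 of 8 fibrillar, 2 of 6 type IV and 8 of 19 other collagens, and the lower ones were Col4a2 and Col13a1. Without overlap between the groups 5 were higher, against 11.1% of all genes, and 1 was lower, against 14.0%. This comparison shares the doxorubicin vehicle libraries with the one before, so folds of opposite sign in the 2 comparisons are not separate evidence. Fitted on the first part alone, 13 of the 33 were higher and 2 lower, where 10.7% of all genes were higher and 10.8% lower. The second part holds a single doxorubicin NMN library, assumed to vary like the other groups, and gave 18 higher and 5 lower, where 20.7% of all genes were higher and 20.5% lower.

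**Figure D1:**
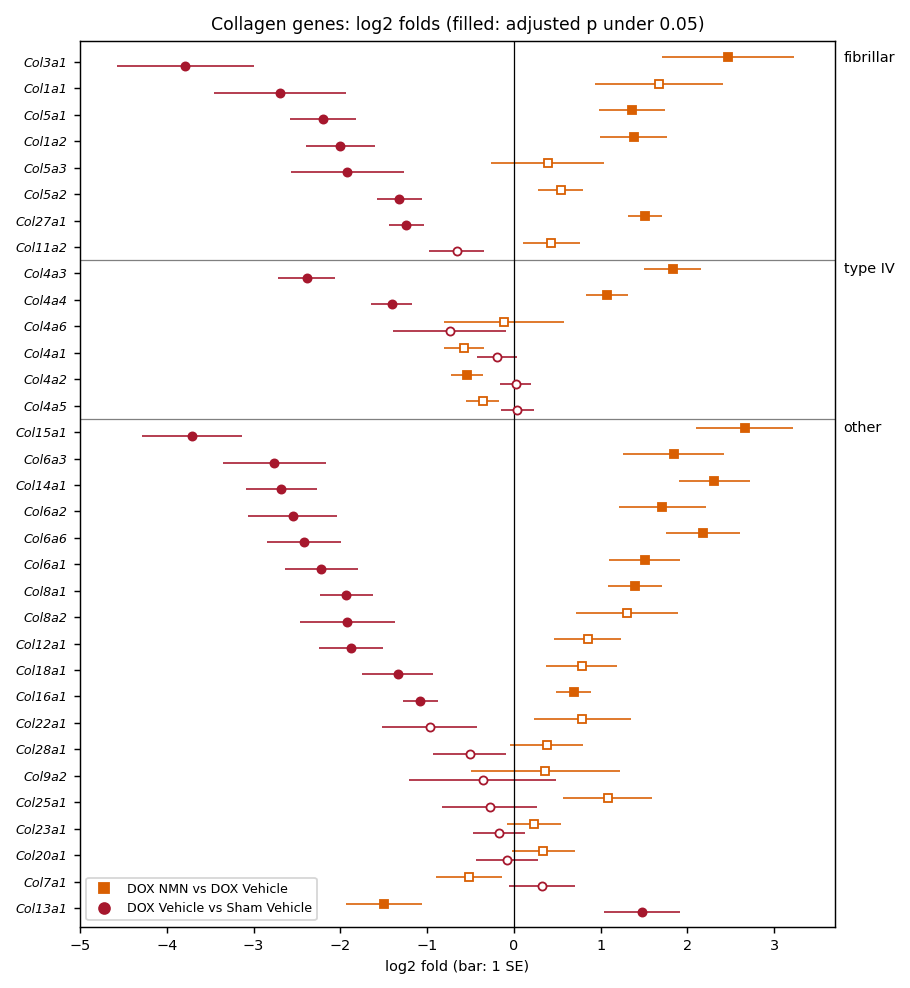
Log2 fold (x axis, bars 1 SE) of each of the 33 tested collagen genes (y axis) for doxorubicin NMN against doxorubicin vehicle (squares) and doxorubicin vehicle against sham vehicle (circles), filled where the adjusted p was under 0.05. Circles lie left of 0 for 29 of 33 genes, with Col4a1, Col4a2 and Col4a5 near 0 and Col13a1 to the right, and squares lie right of 0 for 27 of 33.

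Between sham NMN and sham vehicle, 0 of the 33 collagens were called by edgeR, as were 0% of all genes. At an unadjusted p under 0.05 there were 342 genes, 2.32% of those tested, and 0 collagens. DESeq2 and limma-voom also called 0 collagens. Between doxorubicin NMN and sham NMN edgeR called 0 collagens and 0% of all genes, DESeq2 and limma-voom called 0 collagens, and DESeq2 called 21 genes. At an unadjusted p under 0.05 there were 1223 genes, 8.31% of those tested, and 9 collagens, all lower in doxorubicin NMN, a direction that 3.46% of all genes took. For 6 collagens the doxorubicin NMN libraries lay below all sham NMN libraries, as for 3.15% of all genes. The log2 fold was negative for 28 of the 33, with a median of -0.60. A missed threshold does not show that the groups were alike. The intervals stayed wide, as in Col1a1 with a log2 fold of -0.91 (SE 0.71) and Col15a1 with -0.75 (SE 0.51). With only first-part libraries 0 collagens were called by edgeR, and the second part holds 1 library of each group, too few for this comparison.

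The interaction asks whether NMN moved a gene differently in doxorubicin and in sham hearts. It was positive, meaning that the NMN fold was higher under doxorubicin, for 8 collagens (edgeR, adjusted p under 0.05) and negative for 0. Over all genes 18.4% were called for it, 9.49% positive and 8.96% negative. They were Col27a1 (1.33, SE 0.28, adjusted p = 0.00563), Col4a3 (1.87, SE 0.44), Col15a1 (2.96, SE 0.75), Col14a1 (2.08, SE 0.55), Col6a6 (2.18, SE 0.57), Col5a1 (1.61, SE 0.52), Col6a1 (1.76, SE 0.57) and Col4a4 (1.02, SE 0.33) on the log2 scale. The first 5 were called whichever single library was left out. Col5a1, Col6a1 and Col4a4 were not: the count was 5 without replicate 3 or 4 of sham vehicle, 1, 2 or 3 of sham NMN, 3 or 4 of doxorubicin vehicle, or 2 or 3 of doxorubicin NMN, and 16 without replicate 2 of doxorubicin vehicle. The Col4a4 call was also lost without replicate 1 of sham vehicle, 1 of doxorubicin vehicle or 4 of doxorubicin NMN, and with limma-voom. On log2 FPKM with limma the count was 5 or 1 with pseudocounts of 0.1 and 1, and 0 with 0.1 and no filter on low values. With first-part libraries alone the interaction was called positive for Col27a1 (1.49), Col14a1 (2.21) and Col6a6 (1.69). There it was called negative for Col4a2 (-0.70) and Col4a5 (-0.59), which were not called in all libraries. It was not called there for Col4a3 (1.56) and Col15a1 (2.14) (edgeR, adjusted p = 0.114 and 0.101). The second part, with 1 library of each NMN group, gave 0.75 for Col27a1, 1.82 for Col4a3, 3.19 for Col15a1, 1.01 for Col14a1 and 3.10 for Col6a6.

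Fibrillar collagens fell in doxorubicin vehicle hearts with a median log2 fold of -1.96 over the 8 tested, against 0.01 over all genes. Levels are given as FPKM, counts per kilobase of exon and per M counts of the library, where the length is 1 merged value per gene (6563 bases for Col1a1 and 12426 for Col1a2), so levels of different genes compare only as far as that length fits the transcripts present. Col3a1, the type III chain of fine elastic fibrils (chr1:45311538-45349706), read 2.78, 14.8, 13.2 and 3.95 FPKM in doxorubicin NMN, 1.45, 4.33, 0.364 and 0.354 in doxorubicin vehicle, 10.6, 12.0, 11.8 and 40.3 in sham NMN, and 12.3, 9.06, 24.7 and 39.0 in sham vehicle. Every doxorubicin vehicle library lay below every sham library, and the doxorubicin NMN libraries were spread between and over both. Col3a1 was 13.9-fold lower in doxorubicin vehicle than in sham vehicle (log2 fold -3.79, SE 0.79, adjusted p = 0.001), and first-part libraries gave -1.97, second-part libraries -6.42. It was higher in doxorubicin NMN than in doxorubicin vehicle (log2 fold 2.47, SE 0.76, adjusted p = 0.0182). That call rested on single libraries: without replicate 3 or 4 of doxorubicin vehicle, or 2 or 3 of doxorubicin NMN, the fold was 2.15, 2.15, 2.11 and 2.19, and the adjusted p lay between 0.0524 and 0.0572.

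Col1a1 and Col1a2, the chains of type I collagen, the main fibre protein of the heart, were both lower in doxorubicin vehicle than in sham vehicle. Col1a1 (chr11:94936224-94953042) read 2.85, 14, 12.4 and 5.46 FPKM in doxorubicin NMN, 2.79, 7.85, 0.439 and 0.353 in doxorubicin vehicle, 10.2, 10.8, 12.7 and 32.1 in sham NMN, and 10.9, 9.48, 20.0 and 29.5 in sham vehicle. The lowest readings were replicates 3 and 4 of doxorubicin vehicle, and the groups did not overlap with sham vehicle. It fell in doxorubicin vehicle against sham vehicle (log2 fold -2.70, SE 0.76, adjusted p = 0.00747). The fold was -1.02 (edgeR, adjusted p = 0.197) in the first part and -5.92 in the second, each with 2 libraries of both groups. With NMN it was not called against doxorubicin vehicle (1.67, SE 0.74, adjusted p = 0.0863), and without replicate 2 of doxorubicin vehicle it was (2.87, adjusted p = 0.00496). Col1a2 (chr6:4504814-4541544) read 4.75, 10.4, 10.5 and 4.77 FPKM in doxorubicin NMN, 3.56, 5.43, 1.52 and 1.42 in doxorubicin vehicle, 8.48, 8.83, 9.75 and 19.3 in sham NMN, and 9.79, 8.44, 11.3 and 16.5 in sham vehicle. Doxorubicin vehicle was lowest here too, without overlap with sham vehicle. Its log2 fold was -2.0 (SE 0.40, adjusted p = 7.2e-04) in doxorubicin vehicle against sham vehicle and 1.38 (SE 0.39, adjusted p = 0.0128) in doxorubicin NMN against doxorubicin vehicle. The first and second parts gave -1.09 and -3.19 for the former, and 0.99 and 1.69 for the latter.

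The ratio of the chains differed between libraries. Type I collagen is mostly built with more Col1a1 than Col1a2 chains. The FPKM ratio of Col1a1 to Col1a2 was 0.60, 1.34, 1.18 and 1.14 in doxorubicin NMN, 0.784, 1.45, 0.288 and 0.248 in doxorubicin vehicle, 1.2, 1.23, 1.30 and 1.66 in sham NMN, and 1.11, 1.12, 1.78 and 1.79 in sham vehicle. The 2 second-part doxorubicin vehicle libraries were lowest and the 2 second-part sham vehicle libraries highest. The ratio of Col3a1 to Col1a2 averaged 1.02 ± 0.385 in doxorubicin NMN, 0.423 ± 0.261 in doxorubicin vehicle, 1.47 ± 0.41 in sham NMN and 1.72 ± 0.653 in sham vehicle (SD, n = 4 each). These ratios are given as a description, with no test.

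**Figure D2:**
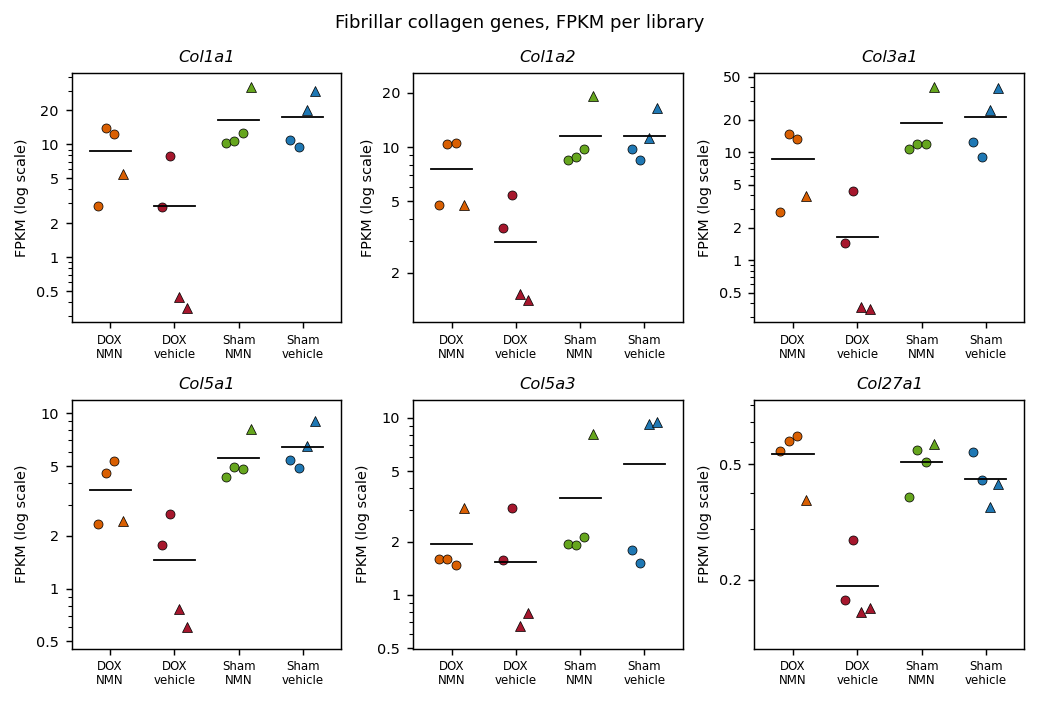
FPKM (log y axis) of 6 fibrillar collagen genes in each library, by group from doxorubicin NMN to sham vehicle, with circles for the first part of the library split, triangles for the second and a bar at the mean. For Col1a1, Col1a2, Col3a1 and Col5a1 the triangles are the lowest points of doxorubicin vehicle and the highest of sham NMN and sham vehicle, whereas for Col27a1 all 4 doxorubicin vehicle libraries, at 0.154 to 0.275, lie below every library of the other groups.

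Type V collagen sits inside type I fibrils and is known to set their width. Its Col5a1 chain (chr2:27886425-28039514) read 2.32, 4.55, 5.32 and 2.43 FPKM in doxorubicin NMN, 1.77, 2.65, 0.769 and 0.606 in doxorubicin vehicle, 4.31, 4.91, 4.83 and 8.15 in sham NMN, and 5.44, 4.87, 6.5 and 8.98 in sham vehicle. The doxorubicin vehicle libraries lay below all sham libraries, and the highest of them, 2.65, lay above the lowest 2 with NMN. The log2 fold of Col5a1 was -2.20 (SE 0.38, adjusted p = 2.2e-04) for doxorubicin vehicle against sham vehicle, with -1.29 and -3.45 in the 2 parts, and 1.36 (SE 0.38, adjusted p = 0.0103) for doxorubicin NMN against doxorubicin vehicle. Col5a2 also fell (-1.32, SE 0.26, with -0.84 and -1.80 in the parts), and its fold with NMN was 0.54 (SE 0.26, not called). Col5a3 differed between the parts of the split. Its mean was 1.53 ± 1.11 FPKM in doxorubicin vehicle and 5.51 ± 4.45 in sham vehicle (SD, n = 4 each), and its called fold of -1.92 (adjusted p = 0.0217) was 0.41 with first-part libraries alone and -3.65 with the others. That call was lost without any 1 of replicates 3 and 4 of doxorubicin vehicle and replicates 3 and 4 of sham vehicle, and also with limma-voom (-1.63, adjusted p = 0.06), with limma on log2 FPKM at each setting tried, with the replicate block and with the split as a term (-1.32, adjusted p = 0.0663).

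Col27a1, a fibrillar chain known from cartilage and low in these hearts, gave the steadiest values of the class. It (chr4:63214004-63334991) read 0.558, 0.604, 0.629 and 0.376 FPKM in doxorubicin NMN, 0.170, 0.275, 0.154 and 0.159 in doxorubicin vehicle, 0.386, 0.560, 0.511 and 0.589 in sham NMN, and 0.551, 0.442, 0.357 and 0.428 in sham vehicle. Doxorubicin vehicle lay apart below the other 3 groups, which overlapped each other. The log2 fold was -1.24 (SE 0.20, adjusted p = 1.6e-04) for doxorubicin vehicle against sham vehicle, and -1.23 and -1.28 in the 2 parts. It was 1.51 (SE 0.20, adjusted p = 8.2e-05) for doxorubicin NMN against doxorubicin vehicle, with 1.47 and 1.25 in the parts. Col11a2 was not called in any comparison of all 16 libraries, with -0.66 (SE 0.32) for doxorubicin vehicle against sham vehicle. Col2a1, Col11a1 and Col24a1 had too few counts to be tested.

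Of the 6 type IV collagens, Col4a3 and Col4a4 fell in doxorubicin vehicle hearts and 4 were not called. The genes lie head to head in pairs on opposite strands: Col4a1 and Col4a2 on chromosome 8 with starts that overlap by 22 bases, Col4a4 and Col4a3 on chromosome 1 with 71 bases between their starts, and Col4a6 and Col4a5 on chromosome X with 1308 bases between. Col4a1 (chr8:11198423-11312826) and Col4a2 (chr8:11312805-11449287) make the common network of vessels and muscle cells and had the highest mean FPKM of the 44 genes. Col4a1 read 27.2, 41.0, 44.6 and 30.5 FPKM in doxorubicin NMN, 44.3, 59.7, 57.0 and 50.1 in doxorubicin vehicle, 51.6, 49.1, 54.0 and 68.1 in sham NMN, and 41.2, 39.2, 69.3 and 88.5 in sham vehicle. Doxorubicin vehicle lay within the span of sham vehicle, whose second-part libraries were high. Its fold was -0.19 (SE 0.23, adjusted p = 0.522) against sham vehicle, with a 95% interval of -0.67 to 0.30, and -0.57 (SE 0.23, adjusted p = 0.0634) for doxorubicin NMN against doxorubicin vehicle. By part, the fold of Col4a1 against sham vehicle was 0.30 (edgeR, adjusted p = 0.295) in the first and -0.52 in the second.

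Col4a2 read 30.3, 40.8, 38.5 and 37.6 FPKM in doxorubicin NMN, 47.9, 58.5, 56.0 and 50.3 in doxorubicin vehicle, 45.4, 40.8, 48.8 and 61 in sham NMN, and 41.0, 37.4, 59.5 and 70.9 in sham vehicle. Every doxorubicin NMN library lay below every doxorubicin vehicle library. The log2 fold was -0.54 (SE 0.18, adjusted p = 0.0291) for that comparison, and -0.49 and -0.51 in the 2 parts. The call was lost without replicate 3 (-0.49, adjusted p = 0.0764) or 4 (-0.53, 0.06) of doxorubicin vehicle, without replicate 1 (-0.44, 0.0848) or 3 (-0.56, 0.0527) of doxorubicin NMN, with upper-quartile scaling, and with limma on log2 FPKM without a filter. Against sham vehicle the doxorubicin vehicle fold was 0.02 (SE 0.18), with a 95% interval of -0.37 to 0.40. Col4a5, on the X chromosome (chrX:141475385-141689234) and mutated in Alport kidney disease, read 9.30, 7.25, 6.72 and 5.29 FPKM in doxorubicin NMN, 11.2, 11.4, 6.70 and 7.20 in doxorubicin vehicle, 7.87, 8.33, 8.54 and 13.1 in sham NMN, and 8.24, 7.45, 8.54 and 10.8 in sham vehicle. It was not called in any comparison of all 16 libraries. Its doxorubicin vehicle fold was 0.04 (SE 0.19), with 0.46 (edgeR, adjusted p = 0.0178) in the first part and -0.43 in the second. With NMN its fold was -0.36 (SE 0.19), with -0.51 (edgeR, adjusted p = 0.00842) in the first part and -0.40 in the second. The interaction was -0.44 (SE 0.26), with -0.59 (edgeR, adjusted p = 0.043) in the first part and -0.76 in the second.

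Col4a3 and Col4a4, which with Col4a5 build the tougher network known from kidney and lung, both fell. Col4a3 (chr1:82586921-82722059) read 0.255, 0.388, 0.771 and 0.340 FPKM in doxorubicin NMN, 0.104, 0.183, 0.113 and 0.0918 in doxorubicin vehicle, 0.594, 0.510, 0.674 and 0.748 in sham NMN, and 0.544, 0.490, 0.630 and 0.889 in sham vehicle. Doxorubicin vehicle lay below all other groups without overlap. Its log2 fold was -2.39 (SE 0.33, adjusted p = 3.5e-05) against sham vehicle, with -1.91 and -2.84 in the 2 parts, and 1.83 (SE 0.33, adjusted p = 6.6e-04) for doxorubicin NMN against doxorubicin vehicle. Col4a4 (chr1:82448423-82586849) read 0.665, 1.14, 1.35 and 0.922 FPKM in doxorubicin NMN, 0.526, 0.626, 0.455 and 0.345 in doxorubicin vehicle, 1.44, 1.14, 1.0 and 1.83 in sham NMN, and 1.15, 1.12, 1.09 and 1.78 in sham vehicle. Here too doxorubicin vehicle was lowest without overlap. The log2 fold was -1.41 (SE 0.24, adjusted p = 2.1e-04) against sham vehicle, with -1.04 and -1.80 in the parts, and 1.07 (SE 0.24, adjusted p = 0.00328) with NMN. Of the exon bases of Col4a3, 5.6% are shared with C430014B12Rik on the other strand, and the library kit does not keep the strand. Col4a6 was low and not called (-0.74, SE 0.65).

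**Figure D3:**
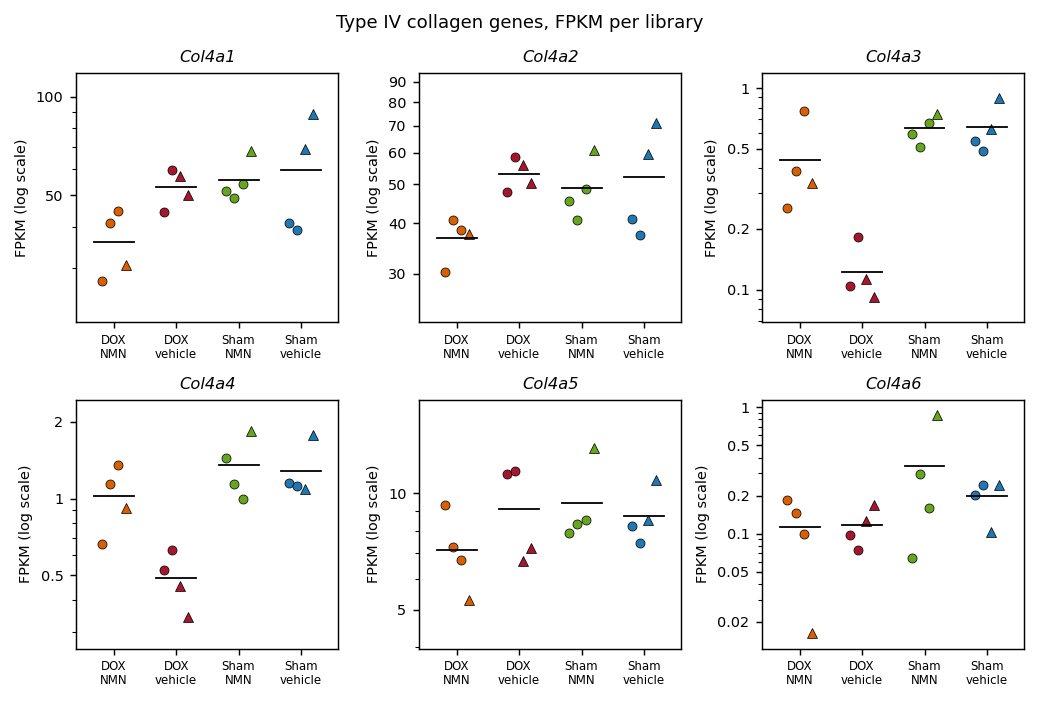
FPKM (log y axis) of the 6 type IV collagen genes in each library, by group from doxorubicin NMN to sham vehicle, with circles for the first part of the library split, triangles for the second and a bar at the mean. Doxorubicin vehicle stands apart below the other groups for Col4a3 (0.0918 to 0.183) and Col4a4 (0.345 to 0.626), and lies among the sham libraries for Col4a1 and Col4a2. For Col4a5 its second-part libraries (6.70 and 7.20) lie below every sham library, and its first-part libraries (11.2 and 11.4) lie above every sham vehicle library.

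The make-up of collagen mRNA by class is given as summed FPKM. The fibrillar sum averaged 34.0 ± 16.8 in doxorubicin NMN, 12.7 ± 9.77 in doxorubicin vehicle, 61 ± 36.8 in sham NMN and 67.3 ± 33.1 in sham vehicle (SD, n = 4 each, here and below). The type IV sum averaged 81.4 ± 12.0 in doxorubicin NMN, 116 ± 12.2 in doxorubicin vehicle, 116 ± 20.4 in sham NMN and 123 ± 41.1 in sham vehicle. Col4a1 and Col4a2 together held 54.2, 41.6, 42.2 and 54.0% of collagen FPKM in doxorubicin NMN, 69.4, 64.8, 83.2 and 82.4% in doxorubicin vehicle, 49.9, 46.4, 48.2 and 36.0% in sham NMN, and 43.8, 44.9, 44.8 and 41.4% in sham vehicle. That share was higher in every doxorubicin vehicle library than in any other library. Fibrillar genes held 16.1 to 25.3% of collagen FPKM in doxorubicin NMN, 4.21 to 14.3% in doxorubicin vehicle, 20.3 to 32.4% in sham NMN and 22.0 to 28.6% in sham vehicle. All collagens together took 0.0778 to 0.147% of counts in doxorubicin NMN, 0.0862 to 0.132% in doxorubicin vehicle, 0.144 to 0.271% in sham NMN and 0.127 to 0.288% in sham vehicle. These sums and shares follow from the gene values above and were not tested.

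**Figure D4:**
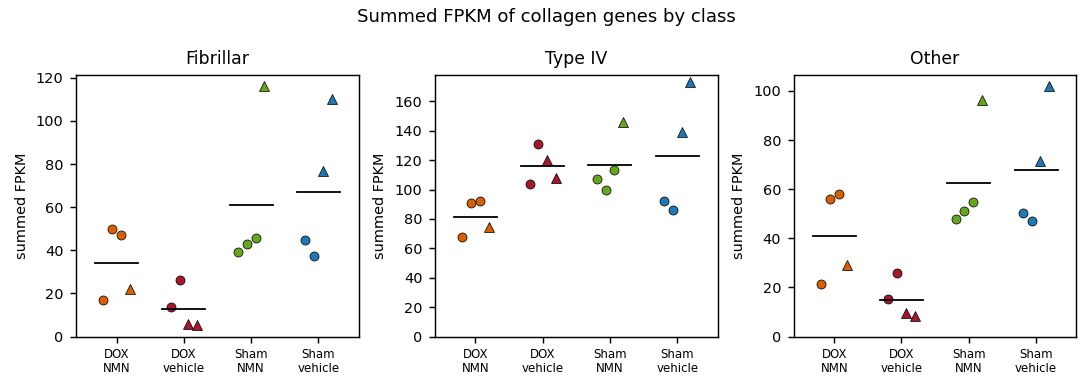
Summed FPKM (linear y axis from 0) of fibrillar, type IV and other collagen genes in each library, by group from doxorubicin NMN to sham vehicle, with circles for the first part of the library split, triangles for the second and a bar at the mean. The fibrillar sum of doxorubicin vehicle, 5.30 to 26.2, lies below both sham groups, while its type IV sum, 104 to 131, lies within the span of sham vehicle, 85.9 to 173.

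Among the other collagens, the 4 tested beaded filament genes of type VI moved the same way. Type VI collagen links basement membranes to the surrounding fibres, and these chains were lower in doxorubicin vehicle than in sham vehicle and higher in doxorubicin NMN than in doxorubicin vehicle. Col6a1 (chr10:76708792-76726168) read 7.54, 19.3, 19.7 and 11.6 FPKM in doxorubicin NMN, 5.81, 9.75, 2.86 and 2.42 in doxorubicin vehicle, 15.3, 16.4, 16.4 and 32.9 in sham NMN, and 17.2, 15.2, 25.8 and 35.6 in sham vehicle. Its neighbour on the same strand, Col6a2 (chr10:76595762-76623630), read 2.33, 8.37, 9.49 and 3.83 in doxorubicin NMN, 2.01, 4.0, 0.775 and 0.754 in doxorubicin vehicle, 6.94, 7.55, 7.94 and 14.6 in sham NMN, and 7.24, 7.10, 12.0 and 15.9 in sham vehicle. Col6a3 (chr1:90765923-90843971) read 1.45, 2.93, 3.29 and 1.45 in doxorubicin NMN, 0.489, 1.89, 0.136 and 0.122 in doxorubicin vehicle, 3.36, 3.47, 4.65 and 6.33 in sham NMN, and 3.05, 3.05, 4.74 and 6.08 in sham vehicle. In each of the 3 genes the doxorubicin vehicle libraries lay below all sham libraries, with replicates 3 and 4 lowest, and overlapped with doxorubicin NMN. The log2 folds against sham vehicle were -2.22 (SE 0.42), -2.55 (SE 0.51) and -2.76 (SE 0.59) for Col6a1, Col6a2 and Col6a3. For the same genes first-part libraries gave -1.13, -1.33 and -1.44, second-part libraries -3.50, -4.14 and -5.34.

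With NMN the log2 folds of Col6a1, Col6a2 and Col6a3 against doxorubicin vehicle were 1.51 (SE 0.41), 1.71 (SE 0.50) and 1.84 (SE 0.58). First-part libraries gave 1.06, 1.23 and 1.16, second-part libraries 2.13, 2.32 and 3.47. In the first part Col6a2 and Col6a3 were not called (edgeR, adjusted p = 0.0677 and 0.0731). Leaving out replicate 3 of doxorubicin NMN ended the call of Col6a2 (1.40, adjusted p = 0.0532). The call of Col6a3 ended without replicate 3 or 4 of doxorubicin vehicle (1.51 each, adjusted p = 0.0569 and 0.0562) or replicate 2 or 3 of doxorubicin NMN (1.71 and 1.61, adjusted p = 0.0546 and 0.0655), and in the fit of only those groups (1.85, adjusted p = 0.0825). Col6a6, a chain that can stand in for Col6a3 (chr9:105687809-105828160), read 0.701, 1.13, 0.956 and 0.598 FPKM in doxorubicin NMN, 0.333, 0.327, 0.0342 and 0.0665 in doxorubicin vehicle, 0.847, 0.966, 0.740 and 1.46 in sham NMN, and 0.748, 1.16, 0.967 and 1.08 in sham vehicle. Doxorubicin vehicle lay below the other 3 groups without overlap. The log2 fold of Col6a6 was -2.42 (SE 0.43, adjusted p = 2.8e-04) against sham vehicle, with -1.59 and -4.27 in the parts, and 2.18 (SE 0.43, adjusted p = 0.00129) with NMN. Col6a4 and Col6a5, beside it on chromosome 9, had at most 3 counts in any library.

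The multiplexins, collagens of the basement membrane zone whose ends can be released as fragments that act on vessels, were both lower in doxorubicin vehicle. Col15a1 (chr4:47208161-47313167), known for its role in muscle and capillary integrity, read 2.11, 12.5, 12.9 and 4.95 FPKM in doxorubicin NMN, 1.23, 2.82, 0.661 and 0.528 in doxorubicin vehicle, 10.5, 11.1, 11.6 and 21.8 in sham NMN, and 10.1, 10.7, 18.0 and 27.3 in sham vehicle. All doxorubicin vehicle libraries lay far below the sham libraries, and replicate 1 of doxorubicin NMN lay among them. It was 13.1-fold lower in doxorubicin vehicle than in sham vehicle (log2 fold -3.71, SE 0.58, adjusted p = 1.0e-04), and first-part libraries gave -2.43, second-part libraries -5.21. The log2 fold was 2.66 (SE 0.56, adjusted p = 0.00195) for doxorubicin NMN against doxorubicin vehicle, with 2.24 and 3.05 in the parts. Col18a1, the source of endostatin, had a log2 fold of -1.34 (SE 0.41, adjusted p = 0.0124) against sham vehicle, with -0.42 (adjusted p = 0.404) in the first part and -2.21 in the second, and with NMN its fold was not called (0.78, SE 0.41). Without replicate 4 of sham vehicle the Col18a1 call was lost (-1.06, adjusted p = 0.0511).

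Of the 6 tested collagens that bind to the surface of fibrils or resemble those that do, 3 were lower in doxorubicin vehicle and 3 were not called. Col14a1 (chr15:55307750-55520803), which limits fibril growth, read 1.32, 2.78, 2.19 and 0.837 FPKM in doxorubicin NMN, 0.463, 0.557, 0.232 and 0.183 in doxorubicin vehicle, 1.72, 2.1, 2.07 and 4.96 in sham NMN, and 2.49, 1.81, 1.77 and 2.95 in sham vehicle. Doxorubicin vehicle was lowest with no overlap with any group. The log2 fold of Col14a1 was -2.68 (SE 0.41, adjusted p = 9.2e-05) against sham vehicle, with -2.14 and -3.46 in the parts, and 2.31 (SE 0.41, adjusted p = 6.4e-04) with NMN. Col16a1 (chr4:130047840-130099283) read 1.05, 1.24, 1.36 and 0.996 in doxorubicin NMN, 0.597, 1.11, 0.622 and 0.551 in doxorubicin vehicle, 1.42, 1.45, 1.40 and 1.98 in sham NMN, and 1.48, 1.24, 1.31 and 1.95 in sham vehicle. Replicate 2 stood above the other doxorubicin vehicle libraries and below all sham vehicle libraries. Its log2 fold was -1.08 (SE 0.20, adjusted p = 4.1e-04) against sham vehicle and 0.69 (SE 0.20, adjusted p = 0.0142) with NMN. The parts gave -0.74 and -1.43 for the former. With NMN the first part gave 0.56, not called (edgeR, adjusted p = 0.0968), and the second 0.76. Col12a1 fell by 1.88 on the log2 scale (SE 0.37), and Col9a2, Col20a1 and Col22a1 were not called, with folds of -0.36, -0.08 and -0.97.

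**Figure D5:**
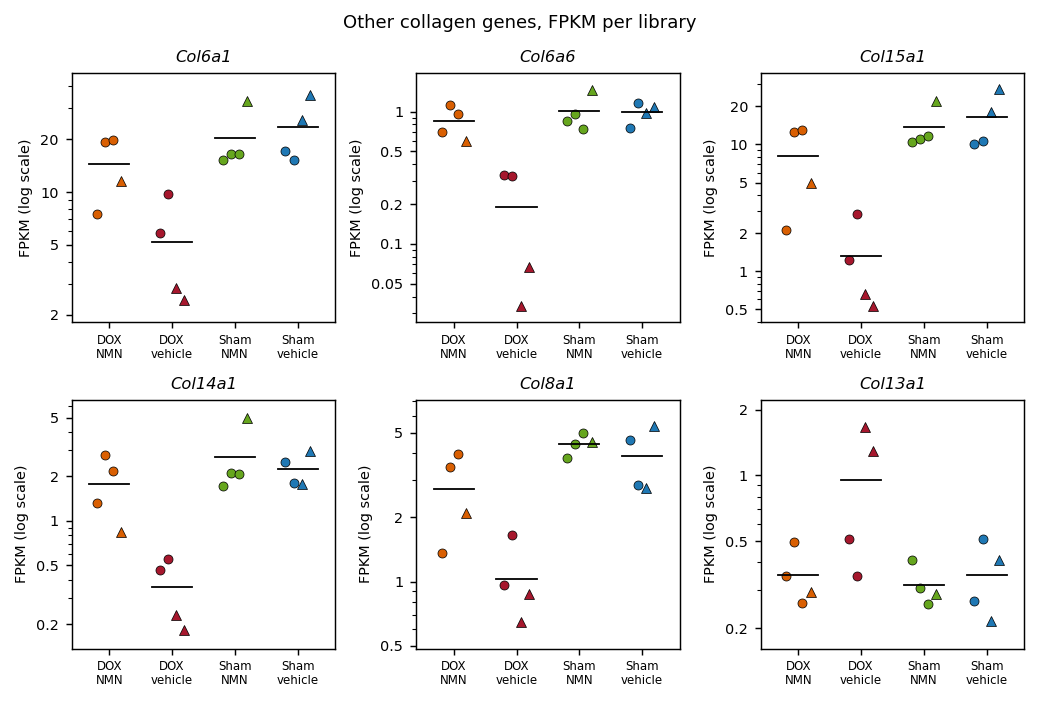
FPKM (log y axis) of 6 other collagen genes in each library, by group from doxorubicin NMN to sham vehicle, with circles for the first part of the library split, triangles for the second and a bar at the mean. Doxorubicin vehicle lies below both sham groups for Col6a1, Col6a6, Col15a1, Col14a1 and Col8a1, and for Col13a1 its 2 second-part libraries, at 1.67 and 1.29, lie above every other library.

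Both tested network collagens of type VIII, known from vessel walls and the cornea, were lower in doxorubicin vehicle. Col8a1 (chr16:57624258-57754737) read 1.36, 3.46, 3.98 and 2.11 FPKM in doxorubicin NMN, 0.970, 1.65, 0.648 and 0.872 in doxorubicin vehicle, 3.81, 4.40, 4.97 and 4.51 in sham NMN, and 4.61, 2.85, 2.74 and 5.36 in sham vehicle. Doxorubicin vehicle lay below both sham groups, and its highest library lay above the lowest with NMN. The log2 fold was -1.93 (SE 0.31, adjusted p = 1.4e-04) against sham vehicle, with -1.58 and -2.36 in the parts, and 1.40 (SE 0.31, adjusted p = 0.00273) with NMN. Col8a2 averaged 0.0354 ± 0.0186 FPKM in doxorubicin vehicle and 0.138 ± 0.0295 in sham vehicle (SD, n = 4 each), with a log2 fold of -1.92 (SE 0.55). Its doxorubicin vehicle libraries held 1 to 4 counts, near the floor of 3. The call was lost by limma on log2 FPKM with a pseudocount of 1 (-0.14, adjusted p = 0.139). It was also lost by limma with 0.1 and no filter (-0.81, adjusted p = 0.0503) and by edgeR in the first part (-1.52, adjusted p = 0.109). The transmembrane collagen Col13a1 (chr10:61838236-61979108), found at muscle-tendon and nerve-muscle contacts, read 0.347, 0.496, 0.261 and 0.293 FPKM in doxorubicin NMN, 0.513, 0.348, 1.67 and 1.29 in doxorubicin vehicle, 0.408, 0.306, 0.258 and 0.288 in sham NMN, and 0.266, 0.514, 0.215 and 0.410 in sham vehicle. Only replicates 3 and 4 of doxorubicin vehicle stood above the range of the other groups. Its log2 fold was 1.48 (SE 0.44, adjusted p = 0.0101) against sham vehicle and -1.50 (SE 0.44, adjusted p = 0.014) with NMN. In the first part the fold against sham vehicle was 0.08 and in the second 2.28, and without replicate 3 of doxorubicin vehicle both calls were lost (1.06, adjusted p = 0.0544, and -1.07, adjusted p = 0.0706). The call of Col13a1 with NMN was also lost with limma-voom (-1.18, adjusted p = 0.0709) and in the fit of only those groups (-1.49, adjusted p = 0.0549).

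The remaining tested collagens were Col7a1, the anchoring fibril chain of skin, and Col23a1, Col25a1 and Col28a1. None of the 4 was called in any of the 5 comparisons of all 16 libraries (edgeR), and their folds for doxorubicin vehicle against sham vehicle ran from -0.51 to 0.32. Of these, Col28a1 had a fold of -2.02 in the second part and 0.22 in the first. The 11 collagens that could not be tested were Col2a1, Col9a1, Col9a3, Col10a1, Col11a1, Col17a1, Col19a1, Col24a1, Col26a1, Col6a4 and Col6a5. Their mean over the 16 libraries was at most 0.116 FPKM, and no library held more than 19 counts of any of them.

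Genes that make, trim and crosslink collagen did not all move with it. Of 17 tested genes of chain folding and hydroxylation 4 were higher and 8 lower in doxorubicin vehicle than in sham vehicle, with a median log2 fold of -0.02 against 0.01 over all genes. The counts in this paragraph can be read against the 23.9% of all genes that were lower and the 24.8% that were higher. Serpinh1, the collagen chaperone Hsp47, read 39.6, 69.9, 75.4 and 35.4 FPKM in doxorubicin NMN, 23.5, 46.7, 16.9 and 15.6 in doxorubicin vehicle, 69.1, 78.2, 66.9 and 95.9 in sham NMN, and 62.7, 62.9, 93.6 and 122 in sham vehicle. It fell by 1.77 on the log2 scale (SE 0.32, adjusted p = 2.9e-04), while P4hb, the shared subunit of prolyl 4-hydroxylase and a general folding enzyme, rose (0.89, SE 0.13, adjusted p = 5.0e-05). In the 2 parts the log2 fold of Serpinh1 was -0.91 and -2.69. Colgalt2, a collagen galactosyltransferase, fell by 1.22 (SE 0.16). Of 8 procollagen processing genes 5 were lower and 1 was higher, the lower ones including Pcolce (-1.46, SE 0.25), an enhancer of the trimming proteinase Bmp1 (-0.70, SE 0.12).

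Of 6 crosslinking genes 3 were higher and 1 lower in doxorubicin vehicle, where 24.8% of all genes were higher and 23.9% lower. So few genes cannot be compared closely with those shares. Lox, lysyl oxidase, read 1.86, 1.01, 0.902 and 2.05 FPKM in doxorubicin NMN, 5.52, 5.37, 9.14 and 8.01 in doxorubicin vehicle, 0.919, 1.16, 1.5 and 1.68 in sham NMN, and 0.861, 1.06, 1.10 and 1.06 in sham vehicle. Every doxorubicin vehicle library stood above all others, which is the opposite direction to the fibrillar chains that Lox crosslinks. Its log2 fold was 2.79 (SE 0.28, adjusted p = 3.4e-06) against sham vehicle and -2.29 (SE 0.28, adjusted p = 3.2e-05) with NMN, and 2.43 and 3.02 in the 2 parts for the first of these. Loxl2, which acts on type IV collagen, fell by 2.17 (SE 0.34), and Loxl4 rose by 1.17 (SE 0.27). Of 7 breakdown genes 3 were higher and 1 lower, again too few to compare closely with the shares of all genes. The neutrophil collagenase Mmp8 rose (6.18, SE 0.92), as did the gelatinase Mmp9 (2.77, SE 0.57), and the collagenase Mmp13 fell by 3.76 (SE 0.77). Mmp8 was near the floor in sham hearts, with 0 to 0.138 FPKM in sham vehicle against 1.29 to 5.63 in doxorubicin vehicle. Mmp13 was near it in doxorubicin vehicle, with 0 to 0.0456 FPKM against 0.07 to 0.51 in sham vehicle. The fitted folds of both genes depend on the prior count and are no bounds.

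Among 8 tested proteoglycans that bind fibrils, 7 were lower and 1 was higher in doxorubicin vehicle, with a median log2 fold of -1.65. In the same comparison 23.9% of all genes were lower and 24.8% higher. Lum, lumican, fell by 1.94 (SE 0.29), Aspn, asporin, by 1.73 (SE 0.23) and Ogn, osteoglycin, by 2.19 (SE 0.46, with -1.33 and -4.05 in the 2 parts). Of 15 partners of type IV collagen in the basement membrane 11 were lower and 1 higher, with a median of -0.87. Lama2 and Lama4, laminin chains of muscle and vessel membranes, fell by 0.93 (SE 0.10) and 1.16 (SE 0.13), and Pxdn, the peroxidase that crosslinks type IV collagen, by 1.80 (SE 0.24). Of 10 tested collagen receptors 4 were lower and 1 higher, a share called near the 48.7% of all genes. The fibroblast integrin chain Itga11 fell by 2.51 (SE 0.42), Lair1, an inhibitory receptor of leukocytes, fell by 2.61 (SE 0.48), and Adgrg1, a receptor for type III collagen, rose (1.30, SE 0.17).

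With NMN, against doxorubicin vehicle, 6 of the 8 proteoglycans were higher and 1 lower, and 9 of the 15 basement membrane partners were higher and 1 lower. Lum rose by 1.60 (SE 0.29), Lama4 by 0.85 (SE 0.13) and Itga11 by 2.17 (SE 0.43). Of the 17 folding genes 7 were higher and 3 lower, of the 8 processing genes 3 higher and 1 lower, of the 6 crosslinking genes 2 higher and 3 lower, of the 10 receptors 3 higher and 2 lower, and of the 7 breakdown genes 1 higher and 3 lower. Over all genes 17.5% were higher and 18.8% lower in this comparison. In the comparisons of sham NMN with sham vehicle and of doxorubicin NMN with sham NMN, edgeR called 0 genes of these lists and 0 genes among all tested.

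Marker lists of collagen-making and other cells are given beside the collagens, and their counts called can be read against the 23.9% of all genes that were lower and the 24.8% that were higher in doxorubicin vehicle than in sham vehicle. The summed level of 9 fibroblast markers was 1350 to 1710 CPM in doxorubicin NMN, 576 to 1120 CPM in doxorubicin vehicle, 1380 to 1910 CPM in sham NMN and 1340 to 1720 CPM in sham vehicle, and 7 of the 9 were called lower in doxorubicin vehicle than in sham vehicle. Gsn had by far the highest FPKM of the 9 and weighs heavily in the sum. It read 366 to 466 FPKM in doxorubicin NMN, 149 to 298 in doxorubicin vehicle, 348 to 469 in sham NMN and 334 to 452 in sham vehicle. The 8 markers of activated fibroblasts summed to 45.8 to 126 CPM in doxorubicin NMN, 24.0 to 62.9 CPM in doxorubicin vehicle, 108 to 251 CPM in sham NMN and 98.6 to 192 CPM in sham vehicle, with 5 of 7 tested lower. Pdgfra, a defining fibroblast marker, did not follow the sum, with 4.46, 3.96, 4.86 and 4.60 FPKM in doxorubicin NMN, 4.28, 4.15, 5.03 and 4.5 in doxorubicin vehicle, 4.38, 3.95, 3.7 and 5.95 in sham NMN, and 4.01, 4.20, 4.12 and 5.60 in sham vehicle. Tcf21, also among the 9, did not follow it either. It read 2.55, 2.77, 2.38 and 3.47 FPKM in doxorubicin NMN, 2.52, 1.91, 4.94 and 4.41 in doxorubicin vehicle, 2.76, 2.52, 2.14 and 3.23 in sham NMN, and 2.28, 2.16, 3.05 and 3.88 in sham vehicle. Summed FPKM of fibrillar collagens per summed FPKM of fibroblast markers was 0.032 to 0.094 in doxorubicin NMN, 0.0249 to 0.0844 in doxorubicin vehicle, 0.0878 to 0.19 in sham NMN and 0.0689 to 0.216 in sham vehicle. Gsn made up most of that marker FPKM in every library, so the ratio is mainly one to Gsn. Smooth muscle and pericyte markers summed to 1260 to 1400 CPM in doxorubicin NMN, 816 to 1000 CPM in doxorubicin vehicle, 1310 to 1710 CPM in sham NMN and 1360 to 1530 CPM in sham vehicle, with 5 of 8 tested lower in doxorubicin vehicle than in sham vehicle. Endothelial markers summed to 954 to 1050 CPM in doxorubicin NMN, 967 to 1320 CPM in doxorubicin vehicle, 921 to 1000 CPM in sham NMN and 897 to 1050 CPM in sham vehicle, with 3 of 8 higher and 1 lower. Macrophage markers summed to 98.6 to 169 CPM in doxorubicin NMN, 117 to 153 CPM in doxorubicin vehicle, 131 to 168 CPM in sham NMN and 138 to 166 CPM in sham vehicle, with 3 of 7 lower. Schwann cell markers (1 of 4 tested higher, 1 lower), mesothelial markers (1 of 1 higher), cartilage and valve markers (3 of 4 lower) and adipocyte markers (1 of 3 lower) summed to at most 16 CPM in any library. Among them Retn (adipocyte) was at 0 in doxorubicin vehicle, Upk1b (mesothelial) in doxorubicin NMN and Matn3 (cartilage) in all groups but doxorubicin vehicle. Atrial muscle markers summed to 19.8 to 273 CPM in doxorubicin NMN, 10.2 to 17 CPM in doxorubicin vehicle, 73.5 to 159 CPM in sham NMN and 11.2 to 218 CPM in sham vehicle, with 3 of 4 tested lower. The part of these cell types in the collagen changes was not tested.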

How the data were processed

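Heart RNA was turned into sequencing libraries with the NEBNext Ultra kit. The kit loses the strand, and where genes on opposite strands overlap their reads are mixed. Alignment used HISAT2 2.1.0, with GRCm38 as the genome, and counting used HTSeq 0.6.0, per the submitters' processing notes. Not given in the sources used here were the annotation release, the strand setting and the read filters. The authors deposited raw counts and FPKM, each covering 30884 genes. These FPKM match the deposited counts over library total and gene length, with a relative deviation of at most 1.3e-13. The labels gave each library its group.

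Counts were tested in R 4.3.3 with edgeR 4.0.16: the default expression filter, TMM scaling and 1 quasi-likelihood fit over the 4 groups of 4 libraries, with Benjamini-Hochberg adjustment over 14716 genes and a threshold of 0.05. Log2 folds carry their SE, and intervals are 95% from the residual and prior degrees of freedom. The steps were tested on simulated data. Alternatives were RLE and upper-quartile scaling, another or no filter, DESeq2 1.42.0, limma 3.58.1 (voom, and trend on log2 FPKM), a threshold of 0.01, a fit of only the groups compared, a replicate block, and each library left out. The library split was used as a term and as subsets.

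Values in every library are given for the 4 fibrillar, 4 type IV and 6 other collagens with the highest mean FPKM, and for the 3 highest and 3 lowest called folds in each of the 2 doxorubicin vehicle comparisons and the 5 smallest interaction p. Other collagens named here, and Pdgfra, Tcf21 and Gsn, were chosen after their values were seen. From each of 7 pathway lists at most 3 genes per comparison are named. The collagen genes, the lists and the 11 cell type lists were chosen with earlier results of these data known. Positions are on GRCm38, where the 44 symbols were the same in GENCODE release M21.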

Additional observations from a re-analysis of the deposited data

Results flagged for a closer look

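In 13 of 76 gene and group combinations, taking the named collagens in 4 libraries each, 1 library stood farther from the other 3 than Dixon's 95% limit allows, where chance gives about 1 in 20. Replicate 4 of sham NMN, the only second-part library of its group, was the high one in 10. It read 40.3 FPKM for Col3a1 (others 10.6 to 12.0), 32.1 for Col1a1 (10.2 to 12.7), 19.3 for Col1a2 (8.48 to 9.75) and 8.15 for Col5a1 (4.31 to 4.91). It also read 13.1 for Col4a5 (7.87 to 8.54), 32.9 for Col6a1 (15.3 to 16.4), 21.8 for Col15a1 (10.5 to 11.6), 14.6 for Col6a2 (6.94 to 7.94), 4.96 for Col14a1 (1.72 to 2.1) and 1.98 for Col16a1 (1.40 to 1.45). Replicate 2 of doxorubicin vehicle was high for Col27a1 at 0.275 (0.154 to 0.170) and Col16a1 at 1.11 (0.551 to 0.622), and replicate 4 of sham vehicle for Col4a4 at 1.78 (1.09 to 1.15). The part of the split or of single hearts in these readings was not tested.

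The interaction term was called positive for 8 collagens (edgeR, adjusted p under 0.05), where 9.49% of all genes were positive and 8.96% negative. Its log2 values were 2.96 for Col15a1, 2.18 for Col6a6, 2.08 for Col14a1, 1.87 for Col4a3, 1.76 for Col6a1, 1.61 for Col5a1, 1.33 for Col27a1 and 1.02 for Col4a4. In each the gene was higher in doxorubicin NMN than in doxorubicin vehicle, while sham NMN and sham vehicle differed by at most 0.30 on the log2 scale. The calls of Col5a1, Col6a1 and Col4a4 depended on single libraries. None of the 8 was called by limma on log2 FPKM without a filter on low values.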

How the results depend on the processing

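The count of collagens called stayed within 1.5 times the main one under every alternative for doxorubicin vehicle against sham vehicle (21), and for doxorubicin NMN against doxorubicin vehicle (16) under all but a threshold of 0.01 (8). Leaving out 1 library gave 19 to 22 and 12 to 18 for these, 0 to 0 for sham NMN against sham vehicle and for doxorubicin NMN against sham NMN, and 5 to 16 for the interaction (8). In the second part alone doxorubicin NMN against sham NMN gave 20, all lower, where 3.99% of all genes were lower. That fit compares 1 library with 1, assumed to vary like the others, and the sham NMN one is the high library described above, so it compares those libraries and not the conditions. The interaction gave 13 without a filter, 5, 1 and 0 by limma on log2 FPKM with a pseudocount of 0.1, of 1, and of 0.1 without a filter, 2 at a threshold of 0.01, 5 in the first part and 15 in the second; the cause was not tested. The first-part interaction calls were 3 positive and 2 negative, the latter Col4a2 (-0.70) and Col4a5 (-0.59). In that part 4.66% of all genes were positive and 4.45% negative. The second-part interaction calls also had both signs, the negative ones being Col4a5 (-0.76), Col4a6 (-5.35) and Col13a1 (-2.14). Those values rest on 1 library of each NMN group. Of the collagens called in all libraries, the fold sign turned for Col5a3 in doxorubicin vehicle against sham vehicle (0.41 in the first part, not called). In the same comparison Col4a2 (-0.25) and Col4a5 (-0.43), not called in all libraries, were called with the opposite sign in the second part. The fit of only the groups compared was not made for the interaction. With the replicate number as a block, doxorubicin vehicle gave 20 collagens against sham vehicle, and there were 17 for doxorubicin NMN against doxorubicin vehicle. The block gave 0 for both comparisons with sham NMN and 5 for the interaction. Correlations of deviations between libraries of the same number ran from -0.12 to 0.40 and only some libraries correlated best with their own number, so the numbers were not taken to pair the libraries. Depth limits the 11 untested collagens.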
